A study of Mus musculus with 6 samples.

Results

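Class I major histocompatibility complex (MHC) molecules show peptides from the inside of a cell to CD8 T cells, and the genes that make and load those peptides were followed here across 6 arrays of mouse peritoneal macrophages. The set had 9 listed genes: the peptide transporter genes Tap1 and Tap2, the loading genes Tapbp and B2m, the immunoproteasome subunits Psmb8, Psmb9 and Psmb10, and the proteasome activator genes Psme1 and Psme2. They were chosen by name, through the platform's annotation of the probe sets, and 8 of the 9, of 8251 genes named on the array in all, had a probe set with a single symbol. For Psme2 both probe sets are annotated to Psme2 and Psme2b together, so their values are given as those of the shared probe sets and are not counted with the other 8. The 8 genes had 12 probe sets, of which 11 were above the floor used here on at least 1 array, and every gene had at least 1 such probe set.

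The cells were peritoneal exudate cells (PECs), also labelled peritoneal macrophages, of strain C57BL/6 mice. The 6 groups were KO cells, which lack the transcription factor NF-IL6 (C/EBPβ, encoded by Cebpb), after LPS + IFN-γ for 12 h and untreated; KI cells, from a knock-in the labels call NF-IL6 KI(LAP), after LPS + IFN-γ for 12 h and untreated; and wild-type (WT) cells after LPS + IFN-γ, with no time given, and untreated. LPS is a bacterial cell wall lipid that activates macrophages, IFN-γ is the cytokine interferon-γ, and LAP is the name of the activating form of C/EBPβ. Each group was 1 array, the labels give no age and do not say whether an array held 1 animal or a pool, and no group had a replicate, so that the number of arrays limits the precision of every value. Cebpb had a signal of 59.0 and 12.7 on the stimulated and untreated KO arrays, 5890 and 2284 on the KI arrays, and 9329 and 5492 on the WT arrays. Values are linear signal intensities from the deposited table, rescaled to 1 common trimmed mean; a signal under the floor of 98.0 counts as not measured. The share of probe sets above that floor ran from 55.7% to 65.8% of the array.

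In most cells the proteasome, a barrel of protein-cutting subunits, breaks down spent proteins into short peptides. Interferon-γ is known to replace its cutting subunits by Psmb8, Psmb9 and Psmb10, which makes the immunoproteasome, and to add a cap of Psme1 and Psme2 (PA28α and PA28β). Tap1 and Tap2 form the pump that carries peptides into the endoplasmic reticulum, where tapasin, the product of Tapbp, holds an empty class I heavy chain with its light chain, β2-microglobulin (B2m), at the pump until a peptide binds.

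Of the 9 listed genes, 5 lie on mouse chromosome 17, and Psmb9, Tap1, Psmb8 and Tap2 follow each other there with no other protein-coding gene in between (RefSeq, GRCm38.p6). Promoters of 8 of the 9 were matched in RefSeq by symbol; Tap2 had no entry. The 250 bases before the annotated start were searched on both strands for 3 short motifs: GAAANNGAAA, bound by interferon regulatory factors; GGGNNTTTCC, bound by NF-κB; and TTGCNNAA, bound by C/EBP factors. Of 32851 mouse promoters of that length, 2.98%, 1.41% and 9.56% hold them, in that order. B2m held the first and the second, with no overlap between them, and no match was found in the windows of Tap1, Tapbp, Psmb8, Psmb9, Psmb10, Psme1 or Psme2; a match is a string of letters and not a measured site, and a window without one says nothing of a factor. The window of Tap1 is shown because its 250 bases contain all 225 bases between the starts of Tap1 and Psmb9, which are read in opposite directions. That of B2m is shown because it held the matches, in capitals, and because B2m alone of the 8 genes did not pass the test of stimulation. The windows lie at chr17:34187306-34187555 (+ strand) and chr2:122147437-122147686 (+ strand) of GRCm38.p6, written 5′ to 3′.
Tap1: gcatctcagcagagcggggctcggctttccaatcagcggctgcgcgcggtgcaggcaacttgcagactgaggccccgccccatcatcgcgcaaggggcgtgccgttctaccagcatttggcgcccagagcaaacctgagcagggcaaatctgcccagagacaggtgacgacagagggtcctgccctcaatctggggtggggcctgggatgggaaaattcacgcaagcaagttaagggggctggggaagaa
B2m: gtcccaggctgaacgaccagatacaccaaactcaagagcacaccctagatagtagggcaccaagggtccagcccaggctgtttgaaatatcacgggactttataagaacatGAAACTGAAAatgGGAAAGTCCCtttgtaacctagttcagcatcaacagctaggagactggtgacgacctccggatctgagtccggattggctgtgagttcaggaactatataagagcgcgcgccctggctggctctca

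The first comparison asked how the genes answered LPS + IFN-γ. All listed genes with a probe set of their own except B2m were higher in the stimulated cells of every genotype. By each gene's brightest probe set the change of Tap1 was the largest of the 8, but with a gene's probe sets averaged it was not (2.03, below Psmb9, Psme1, Psmb10 and Psmb8). That mean takes in a second Tap1 probe set that was above the floor on only 1 of the 6 arrays. Its changes in KO and KI cells were set to 0 by the floor, so the mean understates what was measured. In a limma fit over the 6 arrays with genotype as a block, 7 of the 8 genes rose (Benjamini-Hochberg adjusted p under 0.05), against 5.31% of the 6767 named genes tested. The lowest stimulated array lay above the highest untreated array for the same 7 of 8 genes, against 10.2% of all genes. The median log2 change of the 8 genes was 2.08, against -0.13 for all genes. The error of this fit is how far the response varied from genotype to genotype; no array had a replicate culture to give another. With both arrays of any 1 genotype left out, 0 of the 8 passed (limma, lowest adjusted p of a member 0.191 without WT, 0.149 without KO and 0.0509 without KI), while 7 kept an unadjusted p under 0.05 and the changes of those 7 lay between 1.59 and 3.81. Without the filter on low values 4 of the 8 passed, and Psmb10, Psmb9 and Tapbp did not (limma adjusted p = 0.0568, 0.0667 and 0.196).

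**Figure D1:**
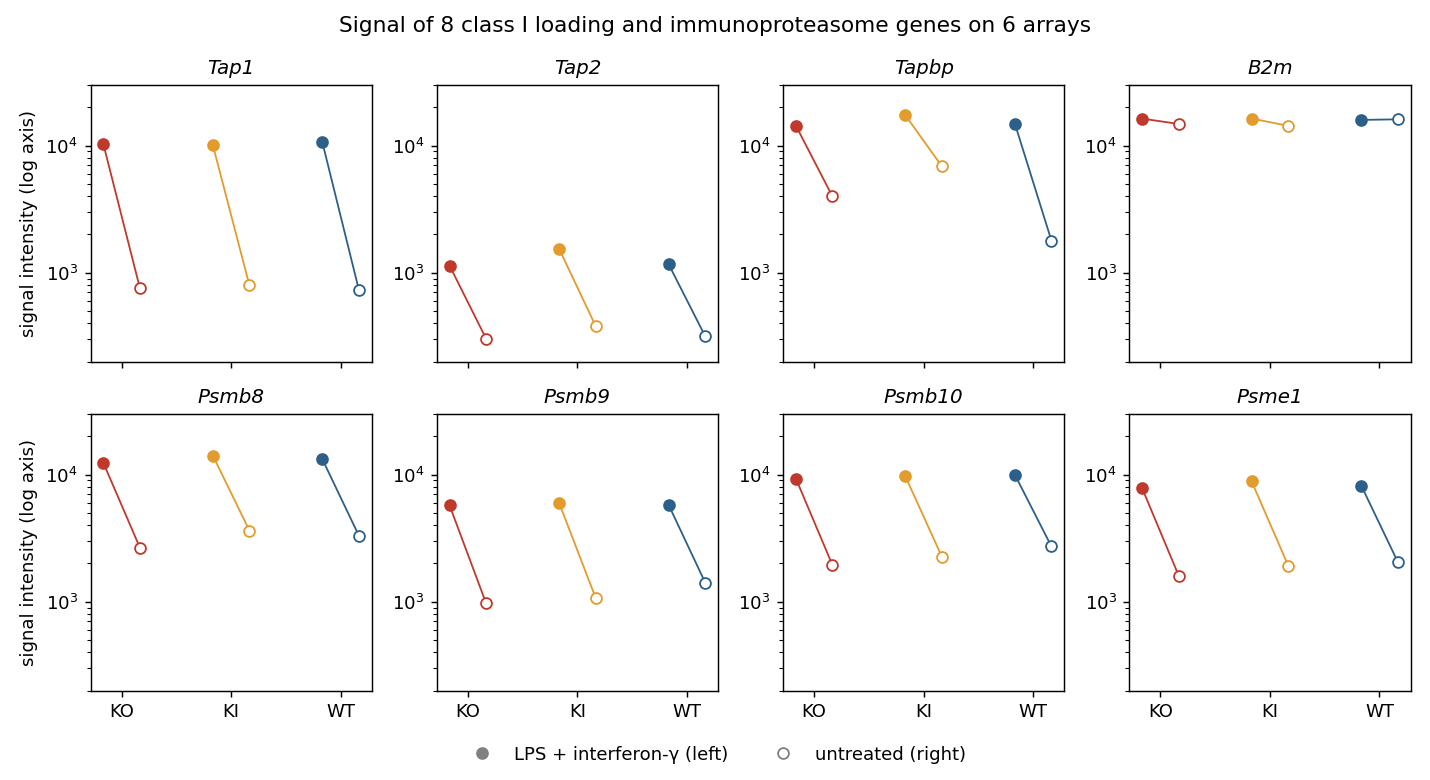
Signal intensity (log axis) of the 8 genes in KO, KI(LAP) and WT cells, 1 array per point; filled points are cells after LPS + IFN-γ, open points untreated cells, and a line joins the 2 arrays of a genotype. For Tap1 the stimulated points lie between 10076 and 10582 and the untreated ones between 732 and 799.8, while the B2m points of both states lie between 14298 and 16325.

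Among the transporter genes, Tap1 had a signal of 10306 in stimulated and 760.3 in untreated KO cells, 10076 and 799.8 in KI cells, and 10582 and 732 in WT cells. The stimulated arrays lay far above the untreated ones, and within a state the genotypes stood close together. The signal was 13.6-fold higher with stimulation in KO, 12.6-fold in KI and 14.5-fold in WT cells (limma mean log2 change 3.76, SE 0.11, adjusted p = 0.000325). Tap2, the other chain of the pump, had 1138 in stimulated and 303 in untreated KO cells, 1542 and 382 in KI cells, and 1166 and 317 in WT cells. It was higher after stimulation in each genotype and highest on both KI arrays (mean log2 change 1.93 with SE 0.16, limma adjusted p = 0.00449). A second Tap1 probe set was above the floor only on the stimulated WT array, with a signal of 185, and did not pass (mean log2 change 0.30, limma adjusted p = 0.438).

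The immunoproteasome subunits changed by similar amounts. Psmb8, the subunit β5i, had 12385 in stimulated and 2670.5 in untreated KO cells, 14125 and 3633 in KI cells, and 13198 and 3305 in WT cells (mean log2 change 2.06 with SE 0.12, limma adjusted p = 0.0016). Psmb9, the subunit β1i, had 5719.6 and 973 in KO cells, 5989 and 1074 in KI cells, and 5770.1 and 1416 in WT cells, in the same order of states (mean log2 change 2.35 with SE 0.15, limma adjusted p = 0.00214). Psmb10, the subunit β2i, had 9314 and 1948 in KO cells, 9675 and 2257 in KI cells, and 9954 and 2720.4 in WT cells (mean log2 change 2.08 with SE 0.13, limma adjusted p = 0.00185). For all 3 subunits the stimulated arrays stood apart from the untreated ones, and the untreated KO array was the lowest of the 6.

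The activator Psme1 (PA28α) followed the same course. Its signal was 7808 in stimulated and 1608 in untreated KO cells, 8833 and 1927 in KI cells, and 8208 and 2064 in WT cells (mean log2 change 2.16 with SE 0.12, limma adjusted p = 0.00157). The brighter probe set shared by Psme2 (PA28β) and Psme2b had 7566 and 1313 in KO cells, 6445 and 1344 in KI cells, and 6534 and 1412 in WT cells. It rose by a similar amount (mean log2 change 2.33 with SE 0.12, limma adjusted p = 0.00143), and it cannot be said which of its genes carried the change. The other probe set of Psme1 and the other shared one stayed under the floor on all 6 arrays.

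B2m, the light chain that every class I molecule needs, had the smallest change of the 8. Its signal was 16305 in stimulated and 14802 in untreated KO cells, 16325 and 14298 in KI cells, and 15923 and 16097 in WT cells. The states overlapped, and the change did not pass the test (mean log2 change 0.11, 95% interval -0.20 to 0.41, limma adjusted p = 0.607). The brightest probe set of each array had a signal of 29471 to 39854.

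Tapbp (tapasin) differed from the rest in how unevenly it changed. Its brightest probe set had 14367 in stimulated and 3994 in untreated KO cells, 17306 and 6875 in KI cells, and 14825 and 1788 in WT cells. The stimulated arrays were all higher than the untreated ones, but the untreated arrays lay far apart, with WT lowest and KI highest. The fold change was 3.60 in KO, 2.52 in KI and 8.29 in WT cells (mean log2 change 2.08 with SE 0.34, limma adjusted p = 0.0257), and the SD of its log2 change over the genotypes was 0.88, against 0.07 to 0.29 for the other 7 genes. A second probe set had 2542 and 899.7 in KO cells, 4535 and 1587 in KI cells, and 3181 and 809.9 in WT cells (mean log2 change 1.66 with SE 0.15, limma adjusted p = 0.00588). The dimmest probe set changed less, with 1331 and 695 in KO cells, 1238 and 718 in KI cells, and 1262 and 699 in WT cells (mean log2 change 0.86 with SE 0.14, limma adjusted p = 0.0257). All 3 probe sets rose, and they disagreed on the size of the change and on the untreated level in KI and KO cells. The dimmest is of the kind that matches several related genes, so its values cannot be given to Tapbp with certainty.

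**Figure D2:**
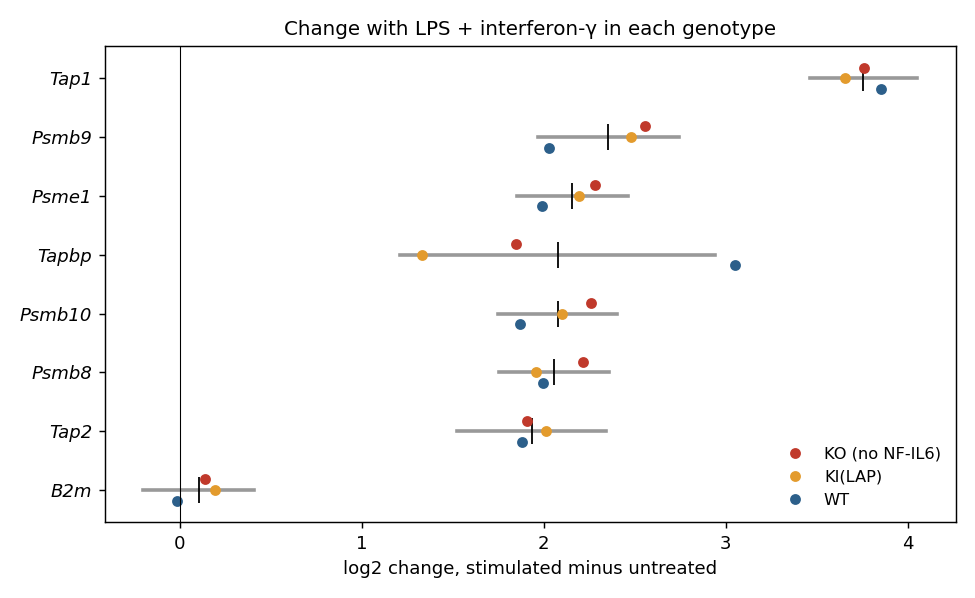
Log2 change with stimulation (horizontal axis) of the 8 genes, from the largest mean at the top to the smallest; coloured points are KO, KI(LAP) and WT cells, the tick is the mean of the fit and the grey line its 95% interval. Tap1 lies between 3.66 and 3.85, B2m between -0.02 and 0.19, and Tapbp spreads from 1.33 in KI to 3.05 in WT cells.

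By the mean log2 change of each gene's brightest probe set the order was Tap1, Psmb9, Psme1, Tapbp, Psmb10, Psmb8, Tap2 and B2m. Tap1 was above Psmb9, Psmb9 above Psme1 and Tap2 above B2m in all 3 genotypes. The gap between Psmb9 and Psme1 was small, at 0.28 in KO, 0.28 in KI and 0.04 in WT cells. With probe sets averaged, Tap1 stood below Psmb9 (2.03 against 2.35), but its second probe set was above the floor on only 1 array. The neighbours in between changed places: Psme1 was above Tapbp in KO and KI cells and below it in WT cells, and Psmb10 and Psmb8 differed by 0.04 in KO, 0.14 in KI and -0.13 in WT cells. With 225 bases between their starts, Tap1 and Psmb9 differed in the size of their change. The log2 change of the brightest Tap1 probe set exceeded that of Psmb9 by 1.21 in KO, 1.18 in KI and 1.83 in WT cells. The neighbouring pair Psmb8 and Tap2 differed by 0.31, -0.06 and 0.12 in the same genotypes. These differences between genes have no test.

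A change of at least 1 on the log2 scale within a genotype was found for 7 of the 8 genes in KO, KI and WT cells alike, against 6.74%, 5.88% and 8.82% of all genes. The second question, from the title of the series, was whether the genotypes differed. For KO against WT over both states 0 of the 8 genes passed, as did 0% of all genes (limma, 946 of 9344 probe sets and 0 of the 8 genes with an unadjusted p under 0.05). Cebpb, the deleted gene, did not pass either (log2 difference -6.19, limma adjusted p = 0.0774), so at this number of arrays a count of 0 says little about smaller differences. For Tap1 the difference was 0.01 on the log2 scale (95% interval -0.35 to 0.37), for Psmb8 -0.20 (-0.57 to 0.17), for Psmb9 -0.28 (-0.75 to 0.20), for Psmb10 -0.29 (-0.69 to 0.11) and for Psme1 -0.22 (-0.59 to 0.16). A test that misses its threshold does not show equal levels. For KI against WT 0 of the 8 genes and 0% of all genes passed (limma, 1598 probe sets with an unadjusted p under 0.05). Tapbp was the 1 member with an unadjusted p under 0.05 (log2 difference 1.08, SE 0.41, limma adjusted p = 0.283).

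In stimulated cells the genotypes lay close together. The difference of KO from WT was between -0.10 and 0.03 on the log2 scale for the 8 genes, and that of KI from WT between -0.07 and 0.40, with Tap2 at the upper end. A difference of at least 1 was found for 0 of 8 genes in either comparison, against 6.07% of all genes for KO and 6.72% for KI. By these shares 0 of 8 is near the background. Both comparisons use the same WT array, whose label gives no time, so genotype and any difference in time cannot be told apart in stimulated cells. With each array centred on its median, the medians over the 8 genes were 0.079 for KO and 0.40 for KI, against -0.042 and 0.076 as scaled here.

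In untreated cells the KO array was lower than the WT array for Psmb9 (973 against 1416, log2 difference -0.54), Psmb10 (1948 against 2720.4, -0.48), Psme1 (1608 against 2064, -0.36) and Psmb8 (2670.5 against 3305, -0.31). The KI array was lower for Psmb9 (1074 against 1416, -0.40), Psmb10 (2257 against 2720.4, -0.27) and Psme1 (1927 against 2064, -0.10), and higher for Psmb8 (3633 against 3305, 0.14). The transporter genes Tap1 and Tap2 differed from WT by 0.05 and -0.07 in KO and by 0.13 and 0.27 in KI cells. The median difference from WT over the 8 genes was -0.21 in KO and 0.01 in KI cells, against -0.03 and -0.10 for all genes. The 11 other core proteasome subunits had medians of -0.41 in KO and -0.37 in KI cells in the untreated state. None of these single-array differences has a test. They also depend on the scaling: with centred arrays Psmb9, Psmb10, Psme1 and Psmb8 stayed lower in KO, by -0.44, -0.38, -0.26 and -0.20, but of these genes only Psmb9 was lower in KI (-0.066), where Psmb10 was at 0.063 and Psme1 at 0.23. The medians over the 8 genes were then -0.11 in KO and 0.35 in KI, and those of the other core subunits -0.30 and -0.041.

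Tapbp was the 1 member of 8 that differed by at least 1 in untreated cells, 2.23-fold higher in KO (3994) and 3.85-fold higher in KI (6875) than in WT cells (1788). Of all genes, 10.9% differed that much in KO and 18.9% in KI cells, so 1 of 8 is near the background. Tapbp was also the 1 member whose log2 change with stimulation differed from WT by at least 1, by -1.20 in KO and by -1.72 in KI cells, against 13% and 16.1% of all genes. Its differences from WT in stimulated cells were -0.05 and 0.22. The differing change is therefore largely the untreated difference again, and not a second observation. The second Tapbp probe set gave untreated differences of 0.15 in KO and 0.97 in KI cells, and the dimmest -0.01 and 0.04. With the mean of the gene's 3 probe sets the untreated differences were 0.43 and 0.98. That mean includes the dimmest probe set, which is of the kind that matches several related genes.

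Genes with related products were looked at beside it after the values had been seen. Pdia3 (ERp57), the partner bound to tapasin in the loading complex, had 2700.5 in untreated KO, 4187 in untreated KI and 1789 in untreated WT cells. Hspa5 (BiP), a chaperone of the same compartment, had 3252, 9221 and 2273 on those arrays. Canx (calnexin), another chaperone, had 669, 625 and 642 with its brighter probe set and 295, 361 and 284 with its dimmer one. The brightest Tapbp probe set, Pdia3, Hspa5 and the dimmer Canx probe set were highest in KI and lowest in WT cells, and the brighter Canx probe set was highest in KO and lowest in KI cells. An order of KI above KO above WT with KI at least 1 above WT was found for 6.53% of all genes. The dimmer Canx probe set, 0.35 above WT in KI cells, did not reach that size. The share for the order alone was not computed and can only be larger.

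**Figure D3:**
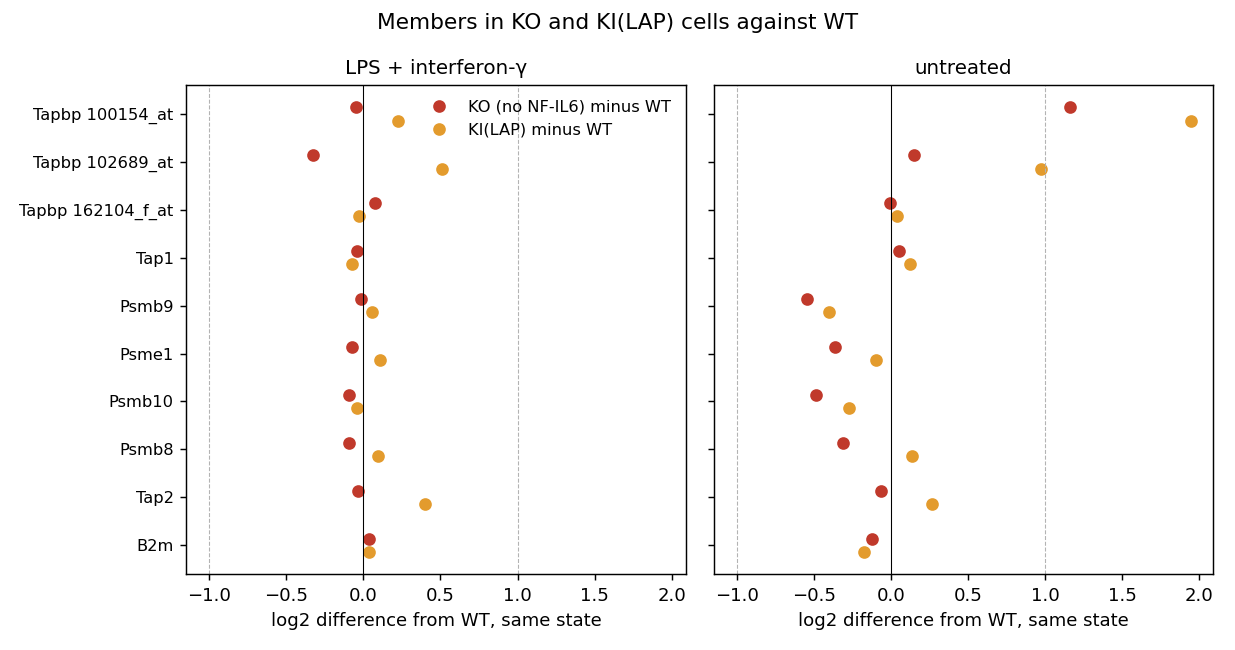
Log2 difference from WT of KO and KI(LAP) cells in the same state, for the 8 genes with all 3 Tapbp probe sets (horizontal axis; 1 array against 1 array per point; dashed lines mark -1 and 1). The stimulated points lie between -0.32 and 0.51, and in untreated cells the brightest Tapbp probe set stands out at 1.16 in KO and 1.94 in KI.

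Other genes of the pathway were then set beside the members. As background for the counts in these lists, 5.31% of the 6767 named genes rose, and 562 of all 9344 probe sets fell. In the immunoproteasome Psmb8 takes the place of Psmb5, Psmb9 that of Psmb6 and Psmb10 that of Psmb7. Of those 3 replaced subunits, Psmb7 rose (3445 in stimulated and 1302 in untreated KO cells, 3785 and 1492 in KI cells, 2276 and 1225 in WT cells; mean log2 change 1.21, limma adjusted p = 0.0133). The Psmb7 probe set is of the kind that matches several related genes, so its rise cannot be given to Psmb7 with certainty. Psmb5 and Psmb6 had changes of 0.58 and 0.33 that did not pass (limma adjusted p = 0.0603 and 0.175), and a dimmer Psmb5 probe set gave -0.32. The log2 change of Psmb9 exceeded that of Psmb6 by 2.12 in KO, 2.01 in KI and 1.92 in WT cells. That of Psmb8 exceeded Psmb5 by 1.74, 1.54 and 1.16 in the same genotypes, and that of Psmb10 exceeded Psmb7 by 0.85, 0.76 and 0.98. Each inducible subunit therefore changed more than its constitutive partner in every genotype, without a test of the difference.

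Of the 11 other subunits of the core barrel, 5 rose, against 5.31% of all genes, and 0 fell (median log2 change 0.50). Within the genotypes the median change was 0.73 in KO, 0.63 in KI and 0.21 in WT cells, without a test. Psma5 and Psma7, α subunits of its outer rings, rose by 1.54 and 1.12, and Psma4 by 1.08 (limma adjusted p from 0.00679 to 0.0138). Of 5 other activators and assembly factors 0 passed. Pomp, which helps to assemble new barrels, had a change of 0.90 (limma adjusted p = 0.0634), and Psme3 (PA28γ), the nuclear relative of Psme1, one of -0.12.

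The class I heavy chains had a median log2 change of 0.28, against 2.08 for the 8 members, without a test of the difference. Of 18 listed, 9 had a probe set with a single symbol and 7 were above the floor. Of these 1 rose, H2-T24, a nonclassical gene, with 400.3 in stimulated KO, 369.8 in stimulated KI and 351 in stimulated WT cells and untreated signals under the floor (at least 4.08-fold, 3.77-fold and 3.58-fold; limma adjusted p = 0.0103). The classical chains H2-K1 and H2-D1 had changes of 0.27 and 0.23 that did not pass (limma adjusted p = 0.279 and 0.315), with signals from 15918 to 35291. The brightest probe set of each array had 29471 to 39854. Of the other H2-D1 probe sets, the dimmer one rose (0.80, limma adjusted p = 0.0452) and the brighter one did not pass (0.15). The other H2-K1 probe sets had changes of 0.28 and 0.32 that did not pass (limma adjusted p = 0.371 and 0.761). The dimmest of them went from -1.45 in WT to 1.45 in KO cells. Except for that one, the H2-K1 and H2-D1 probe sets are of the kind that matches several related genes. The heavy chains therefore cannot be told apart with certainty. Of 6 measured chaperones and trimming enzymes 1 passed: Pdia3 fell by 0.99 on the log2 scale (limma adjusted p = 0.027).

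Of 16 listed regulators of the pathway 10 were measured. Among these 5 rose, against 5.31% of all genes, 1 fell and 4 did not pass (median log2 change 1.02). Socs1, the feedback inhibitor of interferon receptors, and Irf1, a factor that binds interferon response elements of class I genes, rose by 4.29 and 3.35 (limma adjusted p = 0.001 and 0.00061). The kinase Jak2 and the factor Irf8 rose by 2.14 and 2.09. Ifngr1, the ligand-binding chain of the interferon-γ receptor, fell by 1.75 (limma adjusted p = 0.0119).

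**Figure D4:**
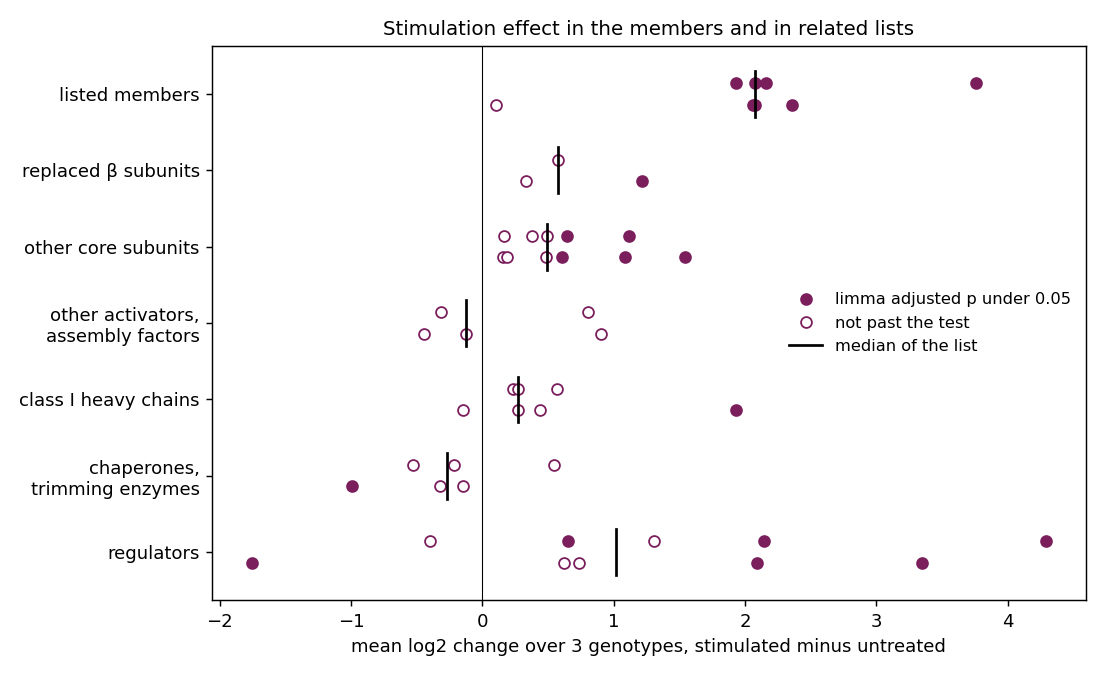
Mean log2 change over the 3 genotypes (horizontal axis) of the 8 members and of 6 lists of related genes, 1 point per gene; filled points passed limma's test at an adjusted p of 0.05, and the bar is the list's median. The members have a median of 2.08, against 0.58 for the subunits they replace, 0.50 for other core subunits and 0.28 for class I heavy chains.

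The genes whose pattern over the 6 arrays was most like the members' mean were named by Pearson's r on the log2 scale, among 3419 genes that varied by at least 1. They were Gbp2, Ifi35, Cst7, Batf, Hspa1a, Irgm1, Cxcl9 and Isg15, with r from 0.996 to 0.999 over 6 arrays, a description in which the difference between the states carries nearly all of the variation. Within the set, each gene's r with the mean of the other 7 was above 0.98 for Tap1, Tap2, Psmb8, Psmb9, Psmb10 and Psme1, 0.864 for Tapbp and 0.678 for B2m.

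Lymphocytes and dendritic cells also use these genes, so markers of other cells were read on the same arrays. The 6 macrophage markers (Cd68, Csf1r, Itgam, Adgre1, Lyz2 and Mrc1) summed to a signal of 31844 to 38885 on the stimulated and 49139 to 53587 on the untreated arrays. Of 6 T cell markers on the array, only Cd4 was above the floor, at 229 to 385, and Cd3e, Cd3g, Cd3d, Cd8a and Cd5 were not above it on any array. The 5 B cell markers summed to 1585 in stimulated and 3540.3 in untreated KO cells, 1008 and 1309 in KI cells, and 1767 and 3781 in WT cells, so in each genotype the sum was lower in the stimulated cells, as was the macrophage sum. Single markers went the other way: Adgre1 had 6125 in stimulated and 3056 in untreated KO cells, 5450.2 and 2031 in KI cells, and 5562 and 2259.9 in WT cells. Itgam was higher in stimulated WT cells (722 against 474), and the B cell markers Cd79a (302 against 152) and Blk (246 against 159) were higher in stimulated KI cells. The 6 dendritic cell markers summed to 7559.6 and 3737 in KO cells, 5882 and 9431 in KI cells, and 4061 and 3320.2 in WT cells. The untreated KI array, where Tapbp was highest of the untreated arrays, had the highest dendritic sum, most of it Itgax at 7301. Fscn1 was also highest in untreated KI cells, at 1488, against 781 in untreated KO and 1416 in untreated WT cells. Flt3, Xcr1 and Ccr7 did not follow. Flt3 had 375 in untreated KI, 756 in untreated KO and 746 in untreated WT cells. Xcr1 had 184, 233 and 240 on those arrays. Ccr7 was under the floor in untreated KI and untreated WT cells alike, and at 139.6 in untreated KO cells. Of 5 NK cell markers on the array 1 was above the floor, and the sums were 188 to 341 over the 6 arrays. On the untreated KI and stimulated WT arrays none was above it. All marker sums were taken over every marker on the array, with signals under the floor included, so low sums are partly background. The sums were 559 to 1923 for 7 neutrophil markers, 660.5 to 1378 for 5 mast cell markers and 799 to 1402 for 6 mesothelial or stromal markers. In bulk RNA, fewer cells of a type and less RNA per cell cannot be told apart, and the part of these markers in the members' values was not tested.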

How the data were processed

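RNA of 6 cell preparations was hybridised to single-colour Affymetrix arrays. The deposited series table holds linear intensity values per probe set, and per the submitters' processing notes MAS5 was the authors' software; version, scaling target and presence calls are not stated there. Trimmed means of the deposited arrays (2% cut at each end) lay within 500.3 to 500.4. Intensities were rescaled to their mean, given a floor at the 40th percentile (98.0) and converted to log2, so a change that starts at the floor is understated. After 66 control probe sets were left out, 9344 of 12422 were above the floor on at least 1 array and entered every fit. Genes were named from the platform annotation, only from probe sets with a single symbol (10833 of 12422; 396 have several and 1193 none), and represented by the brightest probe set (6767 genes). None of 15 pairs of arrays held identical values.

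Stimulation, KO against WT and KI against WT were fitted in 1 additive model with limma 3.58.1 in R 4.3.3 (eBayes with an intensity trend, 2 residual degrees of freedom, Benjamini-Hochberg adjustment over 9344 probe sets at 0.05). As groups hold 1 array each, p-values measure how far effects vary between genotypes or states. Flipping the signs of 3 pairs exactly gives no p under 0.25 (two-sided), so that test was not used. Values within a genotype or state were called by a size of at least 1 on the log2 scale, with no test. In 10 simulations with 200 of 9344 probe sets changed, 62.2% of the stimulation changes of log2 size 1 and 99.2% of those of size 2 were called, with 5.69% of calls false. The simulated noise was independent and drawn from the variances of the same fit, with no difference between genotypes. These shares therefore check the fit under its own assumptions and do not measure its power in the real data.

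The members and lists were chosen with earlier results of these data known. All members are described; up to 4 genes of each related list are named, those past the test with the largest changes first, and further genes of these lists are named as partners or for context after their values were seen. Promoter sequences came from RefSeq (GRCm38.p6). Alternatives were other floors, a pseudocount of 16, quantile normalization, median centring, no filter, no intensity trend, the mean of a gene's probe sets and leaving out each genotype.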

Additional observations from a re-analysis of the deposited data

Results flagged for a closer look

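The log2 change of B2m with stimulation was 0.14 in KO and 0.19 in KI cells and -0.02 in WT cells, a difference in sign. The differences from WT were 0.16 for KO and 0.21 for KI. Each value comes from 1 pair of arrays, the mean change did not pass, and the difference was not tested. The WT value was 0.17 with quantile normalization and 0.16 with arrays centred on their medians, so the sign differs only under some scalings.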

How the results depend on the processing

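With single arrays, measurement error, animal and culture cannot be separated from the groups, and signals near the floor limit what the dim probe sets show. The 7 members rose under 7 of 8 processing alternatives; without the filter on low values 4 did, where 12422 probe sets were tested and many sat at the floor with no variance. With both arrays of a genotype left out, 0 members passed in each of 3 fits, with 1 residual degree of freedom left. No member's mean change with stimulation changed direction. Over all probe sets, 470 rose and 562 fell. Without the filter 49 and 20 did, with the pseudocount 947 fell, and centring on the median gave 643 and 368, as it moved the median change of all probe sets by 0.18. Leaving out a genotype gave 0 to 13 that rose and 0 that fell. For KO against WT, 0 of all probe sets passed, against 1 with the floor at the 20th percentile, with quantile normalization or with centring, and 7 with the pseudocount. For KI against WT 1 passed, against 0 with the floor at the 60th percentile, quantile normalization or no intensity trend, 4 without the filter and 59 with the pseudocount; no member was among the calls of either comparison in any of these settings. Centring moved the members' median difference from WT to -0.11 in untreated and 0.079 in stimulated KO cells and to 0.35 and 0.40 in KI cells. Except for the settings whose construction is given here, the cause was not tested.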
